A study of Mus musculus with 6 samples.

Results

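Transcripts of the interleukin 4 (IL4) receptor and of genes that its signal induces through the transcription factor STAT6 were compared between tumour macrophages of mice given vehicle and of mice given PLX3397. The set was a list of 8 genes, each read from its brightest probe set among those that carry exactly 1 gene symbol. Of these 8 genes 7 were measured, out of 19938 genes in all: the receptor chains Il4ra and Il13ra1 and the response genes Egr2, Tgm2, Batf3, Myc and Retnla. Il2rg, the common gamma chain, had no probe set under that rule and was not analysed here.

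Macrophages were sorted by flow cytometry from hepa1-6 tumours, which are grown from a mouse hepatoma cell line, implanted in the liver of C57BL/6 mice. Their RNA was read on 6 Affymetrix Mouse Gene 1.0 ST arrays, 3 of the vehicle group and 3 of the PLX3397 group. PLX3397 is a small molecule that blocks CSF1R, the receptor that most macrophages need to survive, and the related kinases KIT and FLT3. Both groups share strain, tumour line and sorting, and the dose, the duration of treatment and the number of mice behind each array were not used here. The description field of every sample also holds a second name, M(LPS+IFNγ) for vehicle and M(IL4) for PLX3397, which is the usual shorthand for macrophages stimulated in culture. Titles read vehicle-TAM and treated-TAM instead, source and treatment labels name vehicle and PLX3397, and the groups follow these labels. For IL4 response genes this second name bears on every comparison, and whether the PLX3397 arrays hold cells that were given IL4 was not tested.

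IL4 binds the chain encoded by Il4ra, which then joins either the common gamma chain (Il2rg) or Il13ra1. The second pairing also answers to IL13. Kinases of the JAK family on these chains phosphorylate STAT6, which enters the nucleus and turns on genes such as Arg1, Retnla and the chemokine Ccl17, while SOCS proteins shut the receptor off. Macrophages in this state are known from worm infection, wound repair and tumours.

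Most of these genes were higher with PLX3397. Egr2, Tgm2, Il13ra1, Il4ra and Batf3 rose, Myc fell, and Retnla was below background in both groups. That is 5 of 7 higher, where 19.6% of all 19938 genes were higher, and 1 of 7 lower, where 18.3% were lower (limma, Benjamini-Hochberg adjusted p under 0.05; 37.8% in either direction). The median change of the 7 genes was 0.57 log2, and that of all genes was 0.04. In 5 of the 7 the groups did not overlap, as in 49.3% of all genes. These genes were chosen with results of these arrays known, so the counts describe them and test nothing about the pathway. Counts for the lists of related genes below are to be read beside the same shares, 19.6% higher and 18.3% lower.

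**Figure D1:**
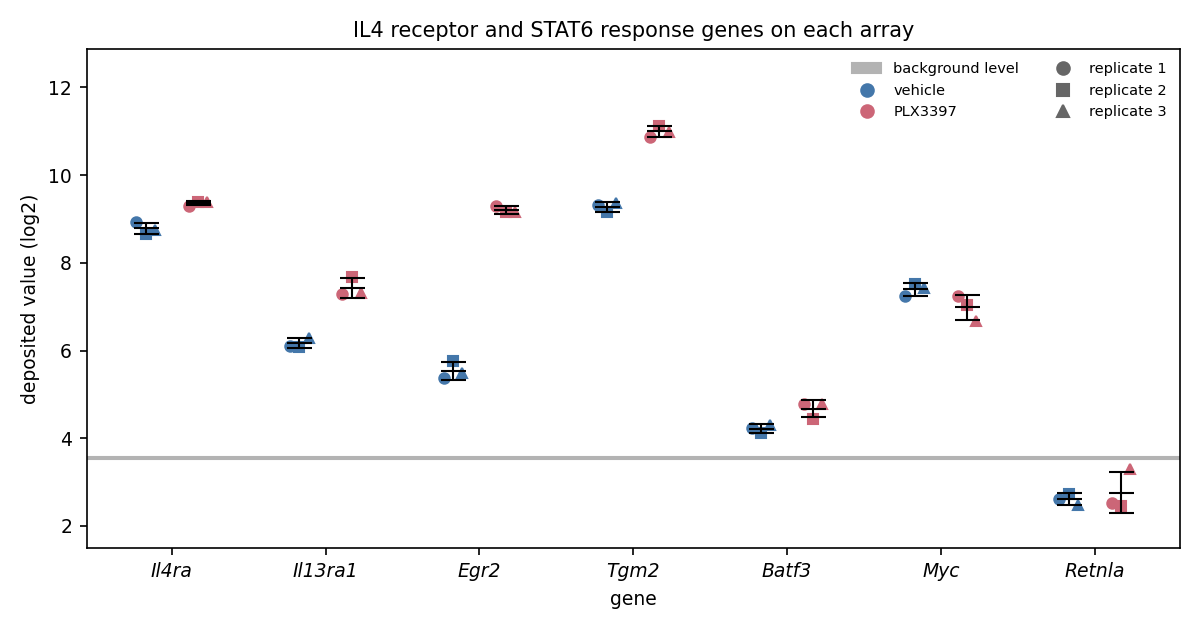
Deposited log2 value of each of the 7 measured genes on each array, with the mean and SD of the 3 arrays of a group in black; the grey band spans the background level of the 6 arrays. Egr2 sits between 5.36 and 5.75 in vehicle and between 9.15 and 9.31 with PLX3397, and Retnla lies under the band on all 6 arrays.

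All values are deposited log2 values, with n = 3 arrays a group, and a change is PLX3397 minus vehicle. The background level, which lay between 3.52 and 3.58, is the value that 95% of the odour and pheromone receptor genes (Olfr and Vmn symbols) stay under on an array. PLX3397 replicate 3 was the array least like the others of its group, with Pearson correlations of 0.992 to them across genes where other pairs of a group reached at least 0.996 (genes are not replicates). Without it 5 of the 7 genes were still called higher by limma and 0 lower (1 at an unadjusted p under 0.05). After subtracting each array's own median, the median change over all genes went from 0.04 to -0.07 and the share of calls that were higher from 51.7% to 34.2%, so that small rises depend on the scaling. All 8 macrophage markers were above background on all arrays. Of these Itgam and Cd14 rose by 0.97 and 0.55, and Fcgr1, Adgre1 and Mertk fell, Mertk without a call when vehicle replicate 2, vehicle replicate 3 or PLX3397 replicate 3 was left out (adjusted p = 0.0681 to 0.0898). Markers of NK cells (4 of 5) and of hepatocytes and hepatoma cells (2 of 4, Alb and Ttr) were below background on every array. By limma 0 genes of either list passed the test, and 2 NK markers and 0 of the others had an unadjusted p under 0.05. Of 5 B cell markers 3 rose, 2 of them below background throughout, and the third, Cd79b, rose by 0.62.

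Promoter sequence from RefSeq, in the GRCm38.p6 build, was at hand for 6 of the 8 listed genes, each window running from 250 bases before to 50 after a transcript start. Both strands were searched for TTCNNNNGAA, the spacing that STAT6 prefers, for TTCNNNGAA, the spacing that other STAT proteins prefer, for the E-box CACGTG read by MYC with MAX and for the AP-1 element TGANTCA. Printed here are 3 windows that set the largest called rise, the smallest called rise and the gene that was not detected beside each other, with STAT-type letters in capitals. They are Retnla at chr16:48842359-48842658, Batf3 at chr1:191098164-191098463 and Egr2 at chr10:67537619-67537918, all on the plus strand and 5′ to 3′.
Retnla: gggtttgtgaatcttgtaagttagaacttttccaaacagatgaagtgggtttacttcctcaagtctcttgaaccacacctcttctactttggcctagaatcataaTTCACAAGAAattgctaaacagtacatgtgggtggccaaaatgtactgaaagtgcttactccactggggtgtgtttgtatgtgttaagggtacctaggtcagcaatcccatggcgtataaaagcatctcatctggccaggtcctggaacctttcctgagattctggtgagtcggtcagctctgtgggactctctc
Batf3: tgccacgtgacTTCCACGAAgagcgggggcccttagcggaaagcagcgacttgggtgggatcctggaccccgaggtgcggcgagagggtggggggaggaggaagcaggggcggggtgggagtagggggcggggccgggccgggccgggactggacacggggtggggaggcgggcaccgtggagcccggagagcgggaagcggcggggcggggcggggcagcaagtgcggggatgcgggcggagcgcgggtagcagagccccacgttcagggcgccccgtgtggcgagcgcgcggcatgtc
Egr2: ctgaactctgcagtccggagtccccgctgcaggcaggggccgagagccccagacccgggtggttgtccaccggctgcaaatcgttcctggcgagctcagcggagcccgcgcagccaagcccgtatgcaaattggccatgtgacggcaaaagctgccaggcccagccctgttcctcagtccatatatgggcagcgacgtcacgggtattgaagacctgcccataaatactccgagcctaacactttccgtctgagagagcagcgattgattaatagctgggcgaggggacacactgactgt
The Retnla window held TTCACAAGAA, a STAT6-type match that begins 145 bases before the start, although the gene was not detected on these arrays. The Batf3 window held TTCCACGAA, of the other STAT spacing, 239 bases before the start, and an E-box that begins 247 bases before it and does not overlap it. None of the 5 Egr2 windows held either STAT-type spacing, and 1 of the 5, at chr10:67535249-67535548, held an E-box. The windows of Il4ra, Il13ra1 and Il2rg held none of the motifs searched. Of 32851 windows of this length, 6.95% held TTCNNNNGAA, 8.30% TTCNNNGAA, 7.15% the E-box and 7.81% the AP-1 element. A match is a run of letters and not a bound site, and a window without one says nothing about more distant elements.

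Both measured receptor chains rose. Il4ra, the chain that binds IL4, was at 8.93, 8.66 and 8.76 on the vehicle arrays and at 9.30, 9.39 and 9.38 on the PLX3397 arrays. Every PLX3397 array was above every vehicle array, although the step was small. The change was 0.57 (SE 0.09, 95% interval 0.37 to 0.77, adjusted p = 5.54e-04), or 1.49-fold. In sorted cells measured in bulk, more cells that carry a transcript and more RNA per cell cannot be told apart, here and below.

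Il13ra1, which pairs with Il4ra to make the receptor shared by IL4 and IL13, was at 6.11, 6.09 and 6.30 in vehicle and at 7.28, 7.69 and 7.31 with PLX3397. The groups were separated by nearly a full log2 unit. The change was 1.26 (SE 0.12, 95% interval 1.00 to 1.53, adjusted p = 1.54e-05), or 2.40-fold. Within each array, Il13ra1 minus Il4ra was higher by 0.69 with PLX3397, with groups that did not overlap (exact two-sided permutation p = 0.1, the smallest that 3 against 3 arrays can give; 0.12 adjusted over 6 such pairs).

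Of the ligands, Il4 was below background on all 6 arrays (3.28 ± 0.20 and 3.23 ± 0.18, SD). Il13 was at 3.75, 3.70 and 3.71 in vehicle, close above background, and at 4.88, 5.03 and 5.03 with PLX3397. Its rise was 1.26 (SE 0.08, adjusted p = 1.17e-06). Il13ra2, the decoy chain that binds IL13 without signalling, was below background on every array. Basophils, mast cells and eosinophils are known sources of IL4 and IL13: 5 of their 8 markers, Mcpt8, Cpa3, Fcer1a, Ms4a2 and Prg2, were below background on all 6 arrays. The summed level of the 8, added as 2 to the power of each value, was 115.8 to 154.3 in vehicle and 92.24 to 94.33 with PLX3397. Ccr3, which fell by 2.25, and Siglecf, which rose by 0.44, were the 2 that passed the test.

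Among 6 other receptor subunits that pair with the common gamma chain, 4 rose and 0 fell by limma (0 at an unadjusted p under 0.05), with a median change of 0.37. Il2ra, the high-affinity chain for IL2, was at 3.49, 3.61 and 3.35 in vehicle, with 1 of 3 arrays above background, and at 6.99, 6.30 and 6.39 with PLX3397. It rose by 3.08 (SE 0.16, adjusted p = 3.49e-07). Il7r, the IL7 receptor chain, was at 7.06, 7.62 and 7.02 in vehicle and at 9.40, 9.63 and 9.43 with PLX3397. It rose by 2.25 (SE 0.15, adjusted p = 1.52e-06), Il21r rose by 0.48 and Il15ra by 0.26, the last without a call after quantile normalisation (adjusted p = 0.201) or without PLX3397 replicate 3, and with a call in 6 of 14 alternatives. T cells carry these chains too. Among 8 T cell markers the CD3 chains Cd3d and Cd3g and the adhesion gene Cd2 were below background on all 6 arrays. Lat rose by 1.95 and was the brightest of the 8 on the PLX3397 arrays. Cd2 rose by 0.32, a call that held in 6 of 13 alternatives. Cd3e, Cd8a, Cd5 and Cd4 differed by 0.07, 0.06, 0.19 and -0.15 without a call. The summed level of the 8 was 109.8 to 120.5 in vehicle and 176.7 to 186.6 with PLX3397, and its part in the rise of Il2ra and Il7r was not tested.

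**Figure D2:**
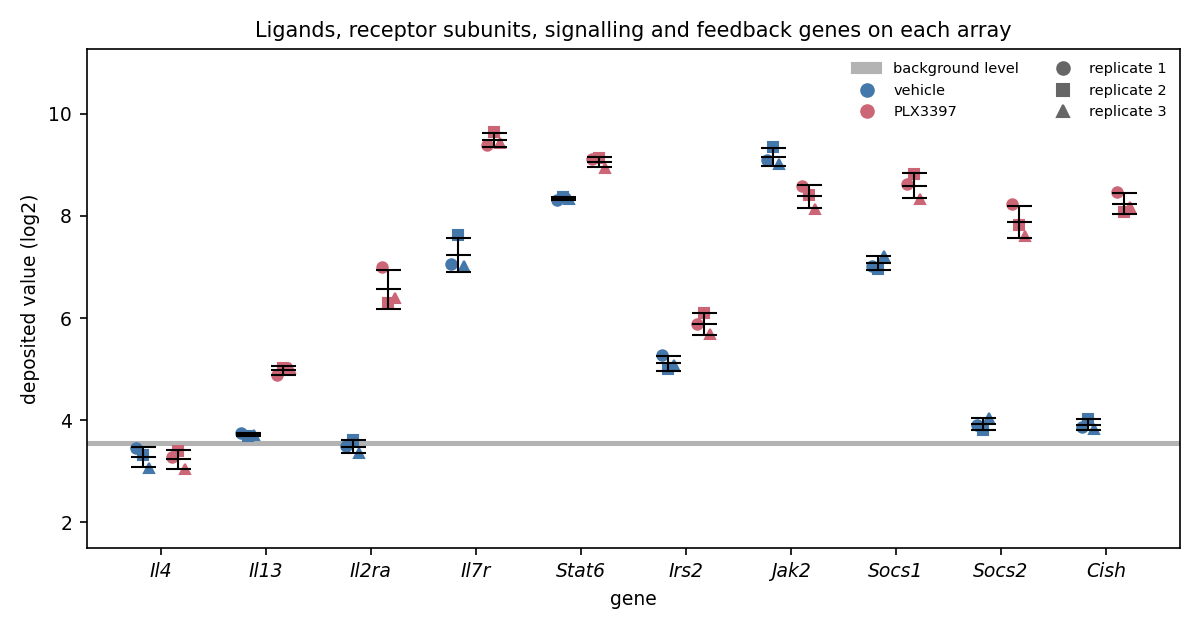
Deposited log2 value on each array of the ligand genes Il4 and Il13, the receptor subunits Il2ra and Il7r, the signalling genes Stat6, Irs2 and Jak2 and the feedback genes Socs1, Socs2 and Cish, with the mean and SD of each group in black and the background level as a grey band. Cish lies between 3.83 and 4.03 in vehicle and between 8.08 and 8.46 with PLX3397, and Il4 stays under the band.

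Transcripts of the signalling chain below the receptor went both ways. Stat6 itself was at 8.32, 8.38 and 8.33 in vehicle and at 9.11, 9.13 and 8.94 with PLX3397. It rose by 0.72 (SE 0.08, adjusted p = 7.18e-05). Irs2, the adaptor through which the IL4 receptor reaches the kinase PI3K, rose by 0.77 from 5.12 ± 0.15 to 5.89 ± 0.21 (adjusted p = 5.26e-04). Jak2 fell by 0.77 (SE 0.13, adjusted p = 6.98e-04), with 9.10, 9.34 and 9.02 in vehicle and 8.58, 8.42 and 8.14 with PLX3397. Jak1 (change -0.12, adjusted p = 0.415) and Tyk2 (0.05, adjusted p = 0.769) did not pass the test, with 95% intervals of -0.36 to 0.11 and -0.19 to 0.28. Jak3 was not analysed here. The STAT6 coactivators Parp14 and Crebbp fell by 0.75 and 0.58. Ncoa1 (change 0.13, adjusted p = 0.414) and Snd1 (0.05, adjusted p = 0.688), of the same list, did not pass the test by limma. Of the 10 measured genes of this list 2 rose and 3 fell, around a median change of 0.0005.

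Of 9 genes that damp cytokine receptors, 5 rose and 2 fell, and Cish, Socs2 and Socs1 rose most. Cish, an inhibitor induced by STAT5, was at 3.86, 4.03 and 3.83 in vehicle and at 8.46, 8.08 and 8.18 with PLX3397. It rose by 4.33 (SE 0.11, adjusted p = 3.00e-09), or 20.1-fold. Socs2 was at 3.91, 3.81 and 4.05 in vehicle and at 8.22, 7.82 and 7.61 with PLX3397, a rise of 3.96 (SE 0.14, adjusted p = 2.79e-08). These values are those of the brighter of its 2 probe sets. Over 14 alternatives the change of Socs2 ran from 2.73 to 4.10, so its size depends on the processing. Socs1, which blocks JAK kinases and is induced by IL4 and by interferons, was at 7.02, 6.96 and 7.22 in vehicle and at 8.62, 8.81 and 8.34 with PLX3397. It rose by 1.52 (SE 0.12, adjusted p = 6.34e-06). Ptpn1, a phosphatase that acts on JAK kinases, and Socs3 rose by 0.43 and 0.30, and the phosphatases Ptpn2 and Ptpn11 fell by 0.90 and 0.36. The fall of Ptpn2 is that of the brighter of its 2 probe sets. Ptpn2 was called lower in all 14 alternatives, with changes from -1.03 to -0.46. The Socs3 call ended with arrays centred on their medians (change 0.19, adjusted p = 0.134) and without vehicle replicate 2 (adjusted p = 0.0777), PLX3397 replicate 1 (0.0655) or PLX3397 replicate 2 (0.0697). With arrays so centred 4 of the 9 rose and 4 fell.

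Egr2, a zinc finger transcription factor that IL4 and STAT6 induce in macrophages and that in turn supports later IL4 response genes, had the largest change of the 7. It was at 5.36, 5.75 and 5.49 in vehicle and at 9.31, 9.15 and 9.17 with PLX3397. The 2 groups were more than 3 log2 units apart at their nearest arrays. The rise was 3.67 (SE 0.11, 95% interval 3.43 to 3.91, adjusted p = 7.46e-09), or 12.7-fold, and 54 of 19938 genes rose by more. Its relatives went different ways. Egr1, an early response gene, fell by 0.42 (SE 0.10, adjusted p = 0.00925), from 6.17, 6.28 and 6.02 to 5.81, 5.57 and 5.84. Egr3 rose by 0.26 (adjusted p = 0.039), a call that held in 6 of 15 alternatives and ended with arrays centred on their medians (change 0.15, adjusted p = 0.222), with the replicate block (0.0514) and without any 1 array other than PLX3397 replicate 1 (0.0571 to 0.124). Egr4 differed by 0.12 (adjusted p = 0.511), and without PLX3397 replicate 3 by 0.27 (adjusted p = 0.0492). Within each array, Egr2 minus Egr1 was 4.09 higher with PLX3397 and Egr2 minus Egr3 was 3.42 higher, with no overlap between the groups (exact two-sided permutation p = 0.1 each; 0.12 adjusted over 6 pairs). Nab1, a corepressor that binds EGR proteins, was at 8.49, 8.56 and 8.50 in vehicle and at 6.87, 7.29 and 7.04 with PLX3397, a fall of 1.45 (SE 0.11, adjusted p = 3.48e-06).

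Tgm2, tissue transglutaminase, cross-links proteins and is an IL4-induced gene shared by mouse and human macrophages. It was at 9.31, 9.16 and 9.37 in vehicle and at 10.88, 11.13 and 10.98 with PLX3397. All PLX3397 arrays stood well above all vehicle arrays. The rise was 1.72 (SE 0.10, 95% interval 1.505 to 1.93, adjusted p = 4.61e-07), or 3.29-fold. Of 8 other transglutaminase genes 2 rose and 0 fell by limma (0 lower at an unadjusted p under 0.05): Tgm1, the keratinocyte enzyme, by 2.29 (SE 0.14, adjusted p = 8.80e-07) and F13a1, which encodes coagulation factor XIII subunit A and is also induced by IL4, by 1.53 (SE 0.18, adjusted p = 8.73e-05). Tgm1 was at 5.10, 5.23 and 5.11 in vehicle and at 7.24, 7.81 and 7.28 with PLX3397. Tgm2 minus Tgm1 decreased by 0.58 on the PLX3397 arrays (exact two-sided permutation p = 0.1), and Tgm2 minus F13a1 differed by 0.19 with groups that overlapped (exact two-sided permutation p = 0.4). Endothelial cells and fibroblasts make transglutaminase as well. Of 6 endothelial markers Kdr, Pecam1 and Cdh5 rose by 1.70, 1.60 and 1.03. By limma Tie1 (change 0.21, adjusted p = 0.077) and Emcn (0.15, adjusted p = 0.581) did not pass the test, and Tek was below background on every array. The summed level was 132.7 to 145.0 in vehicle and 350.0 to 372.4 with PLX3397, and Kdr was the brightest of the 6 on every array. Of 6 fibroblast markers Col1a1 and Col1a2 fell by 0.60 and 0.43, the latter without a call in 5 of 15 alternatives (adjusted p up to 0.153). Dcn, Lum, Pdgfrb and Col3a1 were higher by 0.95, 0.40, 0.29 and 0.13 without a call. Dcn stayed without one in 10 of 15 alternatives and Pdgfrb in 13 of 15. At an unadjusted p under 0.05 by limma, 2 of the 6 were higher and 2 lower, with a median change of 0.21. Their summed level was 350.3 to 562.9 in vehicle and 391.5 to 791.5 with PLX3397. The part of either list in the rise of Tgm2 was not tested.

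Batf3, a transcription factor of the AP-1 family known for the development of type 1 conventional dendritic cells, had the smallest of the called rises. It was at 4.23, 4.11 and 4.31 in vehicle and at 4.78, 4.44 and 4.79 with PLX3397. The groups did not overlap, and PLX3397 replicate 2 lay closest to the vehicle arrays. The change was 0.45 (SE 0.11, 95% interval 0.21 to 0.70, adjusted p = 0.00780), or 1.37-fold. Of the markers of type 1 conventional dendritic cells, Xcr1, Clec9a and Itgae were below background on all 6 arrays, though Itgae was called higher by 0.30. Tlr3, Cadm1 and Wdfy4 fell by 1.03, 0.81 and 0.37, and Zbtb46 rose by 0.39. The summed level of the 8 markers was 406.6 to 443.2 in vehicle and 301.0 to 312.4 with PLX3397. The closest relatives of Batf3 fell: Batf by 1.17 (SE 0.10, adjusted p = 6.55e-06) and Batf2 by 0.72. Batf was at 8.08, 7.84 and 8.11 in vehicle and at 6.80, 6.94 and 6.79 with PLX3397. Batf3 minus Batf was 1.62 higher on the PLX3397 arrays (exact two-sided permutation p = 0.1). Irf4 and Irf8, interferon regulatory factors that bind DNA together with BATF proteins, both rose. Irf4, which IL4 induces through STAT6 in macrophages, was below background on the 3 vehicle arrays and at 7.85, 6.97 and 7.27 with PLX3397. It was at least 14.3-fold higher (mean of the PLX3397 arrays against the background level; adjusted p = 1.03e-07). Irf8 rose by 0.85 from 8.20 ± 0.05 to 9.05 ± 0.20.

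Myc, a growth-promoting transcription factor that IL4 can induce in macrophages, went the other way. It was at 7.24, 7.52 and 7.43 in vehicle and at 7.25, 7.03 and 6.68 with PLX3397. The groups overlapped, since vehicle replicate 1 lay just under PLX3397 replicate 1. Myc fell by 0.41 on the log2 scale (SE 0.14, 95% interval -0.72 to -0.10, adjusted p = 0.040). The call ended without vehicle replicate 2 (adjusted p = 0.138), vehicle replicate 3 (0.104), PLX3397 replicate 2 (0.0731) or PLX3397 replicate 3 (0.104, with a change of -0.26), after quantile normalisation (0.114) and with array weights (0.0841).

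Genes that work with Myc or that it drives differed too. Mxd1 and Mxi1, which compete with Myc for its partner MAX, rose by 1.46 (SE 0.10, adjusted p = 2.52e-06) and 1.51 (SE 0.10, adjusted p = 1.82e-06), and Mxd4 by 0.30. The Mxd4 call held in 8 of 15 alternatives and ended with arrays centred on their medians (adjusted p = 0.190), with the replicate block (0.0629) and without any 1 array other than PLX3397 replicate 3 (0.0626 to 0.126). Mxi1 was at 5.85, 5.93 and 6.08 in vehicle and at 7.63, 7.44 and 7.32 with PLX3397. Mga, a MAX partner that represses transcription, fell by 0.96 and Max by 0.29, so that of the 10 genes of the network 3 rose and 2 fell. Without vehicle replicate 2, vehicle replicate 3, PLX3397 replicate 1 or PLX3397 replicate 3, 1 fell, as Max lost its call (adjusted p = 0.0508 to 0.0701). Of 16 known Myc target genes of growth and ribosome assembly 9 fell and 1, the lactate dehydrogenase gene Ldha, rose by 0.29, which was not called in 6 of 15 alternatives (adjusted p up to 0.145). The median change of the 16 was -0.50. Nop58, a nucleolar protein gene, was at 7.38, 7.64 and 7.37 in vehicle and at 5.41, 5.12 and 5.50 with PLX3397. It fell by 2.12 (SE 0.12, adjusted p = 4.80e-07), the nucleolin gene Ncl by 1.73, Npm1 by 1.55 and the transferrin receptor gene Tfrc by 1.36.

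Retnla, which encodes the secreted protein RELMalpha (FIZZ1) and is among the best known IL4 and STAT6 target genes of mouse macrophages, was not detected. It was at 2.62, 2.73 and 2.47 in vehicle and at 2.53, 2.44 and 3.31 with PLX3397. All 6 values lay below the background level, and PLX3397 replicate 3 was the highest of them. The difference of 0.15 (SE 0.19, 95% interval -0.28 to 0.58, adjusted p = 0.597) has no order that can be read, and without PLX3397 replicate 3 it was -0.12. The related genes Retnlb and Retnlg were also below background on every array. Retn, which encodes resistin, was at 4.03, 3.98 and 3.92 in vehicle and at 4.36, 4.60 and 6.50 with PLX3397, where replicate 3 stood far above the other arrays. Its change of 1.18 did not pass the test (adjusted p = 0.056). Without PLX3397 replicate 3 the change of Retn was 0.51 and passed (adjusted p = 0.00264). It also passed without PLX3397 replicate 1 (1.57, adjusted p = 0.0184) or 2 (1.45, adjusted p = 0.0463) and with the replicate block (adjusted p = 0.0337). Among genes with a mean of at least 4 it passed too (adjusted p = 0.0388). Retn met that filter only through its PLX3397 arrays (mean 3.97 in vehicle, 5.15 with PLX3397), so that pass is no support for the change. Of 8 neutrophil markers S100a8 rose by 1.52 and Ly6g by 0.33 below background, and Elane, Ngp and Cxcr2 were also below background on all arrays. S100a9, Mpo and Camp did not pass the test by limma (adjusted p = 0.115, 0.384 and 0.201). The summed level of the 8 was 232.0 to 246.8 in vehicle and 406.6 to 730.7 with PLX3397. S100a8 was the brightest of the 8 on every array, at 8.62, 9.32 and 8.28 on PLX3397 replicates 1, 2 and 3. The part of these markers in the values of Retn was not tested.

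**Figure D3:**
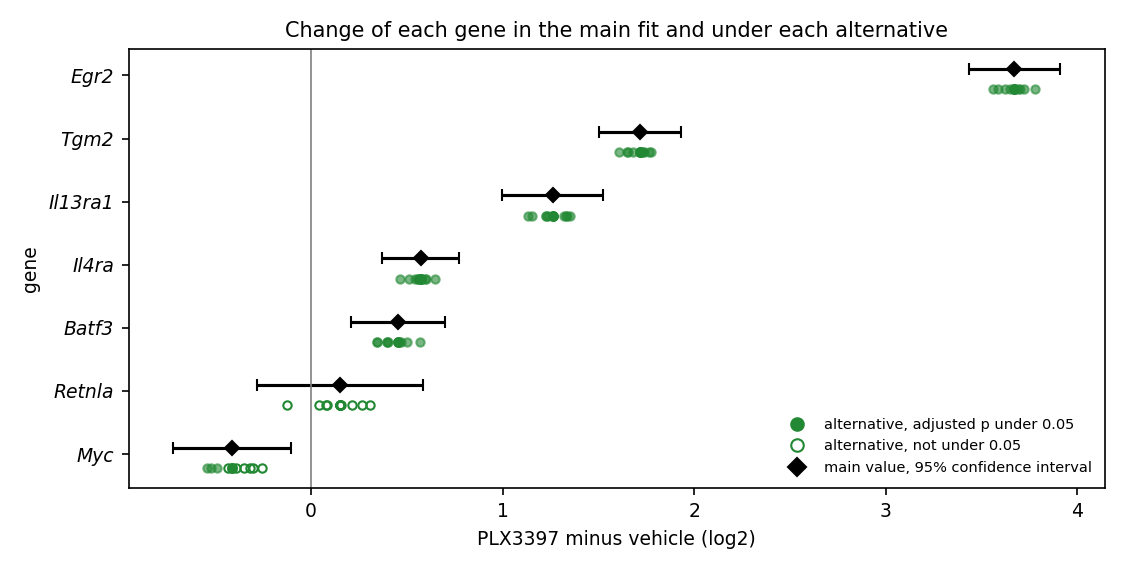
PLX3397 minus vehicle (log2) of each of the 7 measured genes, with its 95% confidence interval in black and the value under each alternative in green, filled where the adjusted p was under 0.05. Egr2, Tgm2, Il13ra1, Il4ra and Batf3 stay to the right of 0 and filled under every alternative drawn, Myc is filled in 9 of 15, and Retnla lies on both sides of 0.

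Most other genes that IL4 induces in macrophages rose. Of 25 further measured genes of that kind, 23 rose and 1 fell, where 19.6% of all genes were higher and 18.3% lower. Their median change was 1.45. The chemokine genes Ccl17 and Ccl22 rose by 7.19 (SE 0.13, adjusted p = 4.51e-10) and 5.40 (SE 0.20), the arginase gene Arg1 by 5.57 (SE 0.18), and Pdcd1lg2, which encodes a ligand of the checkpoint receptor PD-1, by 5.20 (SE 0.13). All 3 vehicle and all 3 PLX3397 arrays were separated in each of these 4 genes. Klf4, a transcription factor that acts with STAT6, differed by 0.14 (adjusted p = 0.167). The gene that fell was Pparg, a nuclear receptor of lipid metabolism, by 0.66 (SE 0.19, adjusted p = 0.020). Its groups overlapped, at 5.46, 5.47 and 5.25 in vehicle and 4.42, 4.50 and 5.27 with PLX3397, and the call ended without vehicle replicate 1 or 2 or without PLX3397 replicate 1 or 2 (adjusted p up to 0.080). Without single arrays, 22 to 23 of the 25 rose, and after quantile normalisation 21. With arrays centred on their medians 20 rose, as Ppargc1b, Alox15 and Matk lost their calls. With the filter at a mean of 5 over the 6 arrays, which leaves out dim genes, 15 of those left rose and 1 fell. A gene can pass this filter through its PLX3397 arrays alone, as Ccl17 did (mean 4.59 in vehicle, 11.8 with PLX3397). This count is therefore no check on the rises. RefSeq promoter windows were at hand for 17 of the 27 genes listed, and 5 of these genes, Ccl17, Clec7a, Il1rn, Pdcd1lg2 and Tfec, held TTCNNNNGAA in a window, against 8.01% of all 27025 genes with windows. No test of that difference was made, and this list too was drawn up with results of these arrays known.

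**Figure D4:**
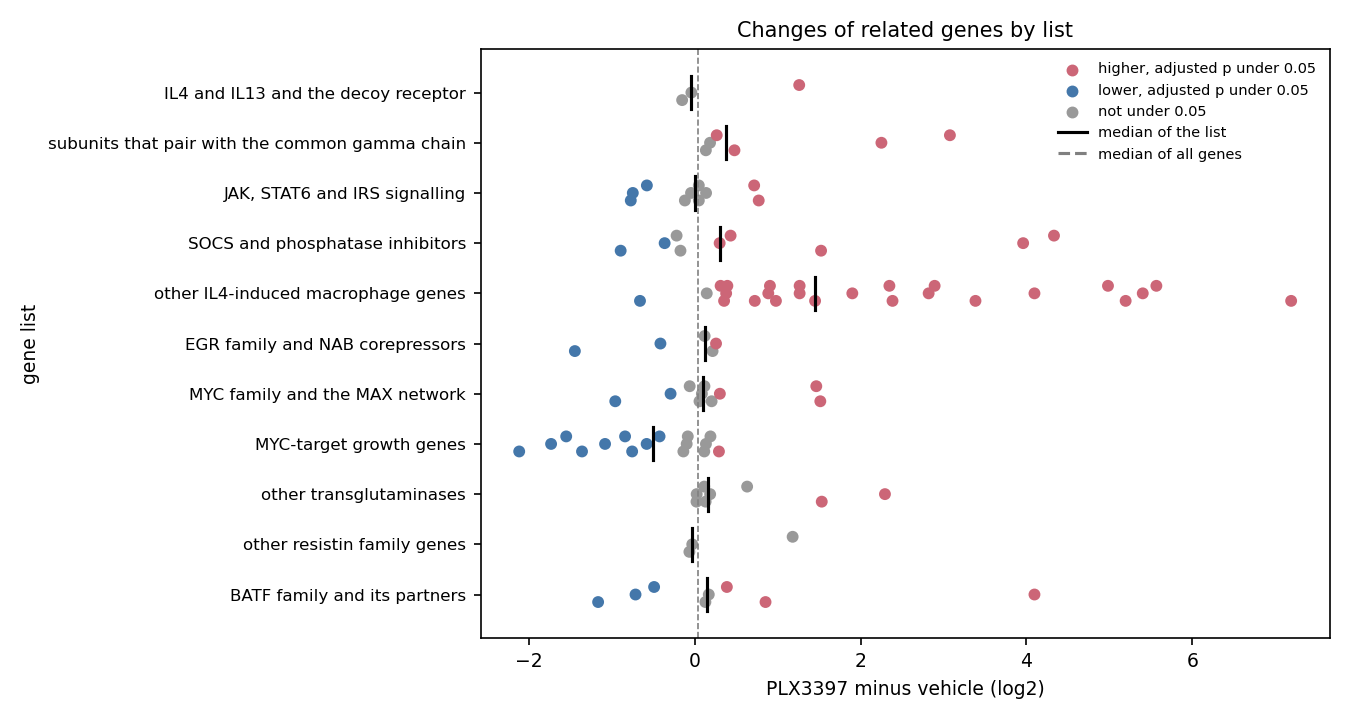
PLX3397 minus vehicle (log2) of every measured gene of the 11 lists of related genes, red where higher and blue where lower at an adjusted p under 0.05, with the median of each list as a black bar and the median of all genes, 0.04, as a dashed line. Irf4 belongs to both the IL4-induced list and the BATF list. The IL4-induced list has its median at 1.45 and the list of Myc target genes at -0.50.

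For each of the 6 genes above background, the genes with the most similar profile were found by the Euclidean distance between the 6 log2 values after each gene's mean was subtracted. For Egr2 these were Ctsk, the cysteine protease cathepsin K, at a distance of 0.14 and with a change of 3.75, and the organic anion transporter gene Slco4a1 at 0.25. For Tgm2 they were the splicing regulator gene Rbfox2 (distance 0.10, change 1.67) and S100a10 (0.13, change 1.79). For Il13ra1 they were the glycogen phosphorylase gene Pygl (0.13, change 1.35) and the isocitrate dehydrogenase gene Idh1 (0.13, change 1.25). For Il4ra they were Tapbpl and Sh3pxd2a, at 0.10 each. For Batf3 they were the lamin gene Lmnb1 (0.08) and Cebpa, a myeloid transcription factor (0.09), and for Myc they were the kinase gene Map3k5 (0.15) and Phax (0.16). With 6 arrays in 2 groups, likeness of profile is mainly likeness of the difference between the groups.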

How the data were processed

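Tumour macrophages were measured on 6 arrays, grouped by sample title. The values are log2 per probe set as deposited by the authors. MAS5 is named, without a role, in the submitters' processing notes; the summary and normalisation steps are otherwise not given in the sources used here. Values ran from 1.57 to 13.5, a range typical of log values; base 2, which no label states, was assumed, and folds rest on it. Array medians lay between 4.21 and 4.35, so no further scaling was applied. Of 28941 probe sets 21789 carry exactly 1 symbol; the brightest of each gene gave 19938 genes, and each of the 7 measured genes had 1 probe set. Groups were compared by limma 3.58.1 (R 4.3.3; lmFit, eBayes, no covariate, two-sided) with Benjamini-Hochberg adjustment over all genes and a threshold of 0.05. The script was tested on simulated data. The titles call the 3 arrays of each group biological replicates, but no label ties them to separate animals. The p-values therefore cover the spread between these arrays, part of which may be technical, and 3 arrays a group limit the precision. No scan date was used, so batches were not tested.

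The members and lists were chosen with earlier results of these data known. Named were all members, the ligands, JAK genes, Stat6, Socs1 and Cish, up to 4 called genes of each other list and 3 of each marker list by size of change, and the 2 nearest profiles for each gene above background. Other names (Crebbp, Ncoa1, Snd1, Max, Ldha, Pparg, Klf4, Alox15, Ppargc1b, Matk, Retn, Egr4, Socs3, Ptpn1, Ptpn11, Retnlb, Retnlg, Adgre1, Mertk, Wdfy4, promoter matches, markers below background or without a call) and the 6 within-array pairs were chosen after their values were seen. Where no array of a group was above background, the fold printed is a bound: the brighter group's mean against the higher of background and the gene's own value. Alternatives were other scaling, filters on dim genes, variance settings, array weights, probe set rules, a replicate block and leaving out each array.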

Additional observations from a re-analysis of the deposited data

How the results depend on the processing

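Under 15 alternatives, Egr2, Tgm2, Il13ra1 and Il4ra kept their direction and their call in all 15, and Batf3 in the 14 that tested it; the filter at a mean of 5 left it out. Changes ran from 3.56 to 3.78 for Egr2, 1.61 to 1.78 for Tgm2, 1.13 to 1.35 for Il13ra1, 0.46 to 0.65 for Il4ra and 0.34 to 0.57 for Batf3. Myc kept its direction in all 15 and its call in 9, with changes from -0.54 to -0.26; limma called 0 of the 7 genes lower after quantile normalisation and 0 with array weights (Myc at unadjusted p = 0.0485 and 0.0367), and 0 to 1 without single arrays (5 higher each time). The cause was not tested. Retnla, below background throughout, ran from -0.12 (without PLX3397 replicate 3) to 0.31 without single arrays. Without single arrays 6332 to 7101 genes of all were called, against 7539.

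With the replicate block 7154 genes were called, 5 of the 7 higher and 1 lower (Myc, adjusted p = 0.0496). No label says that a shared number pairs samples. Deviations from the group means correlated at -0.010, 0.008 and -0.013 for numbers 1, 2 and 3. Every pair of a vehicle and a PLX3397 array lay between -0.023 and 0.025. Values so near 0 show no pairing and cannot tell whether a number marks a shared animal, litter or day. Of 330 counts over the lists of related genes, 298 were within 1.5 times the main count. Signal over background limits Retnla, Il4 and Il13ra2, and Batf3 and Il13 lie close above it. In vehicle the means of Cish (3.91), Socs2 (3.92), Pdcd1lg2 (3.51) and Il2ra (3.48) also lie near background. The sizes of their rises rest on those low values.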
